A study of Homo sapiens with 2 samples.

Results

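The 6 genes described here encode coactivators that nuclear hormone receptors recruit to switch on transcription, and the question was where GATA2 peaks lie around them in LNCaP cells. Peaks of the deposited list were counted for a gene when their midpoint lay in its window, which is the gene body with 0.1 Mb added on each side. This gave 37 peaks out of 36797 in the list. They lay in 5 of the 6 windows, with 11 for NCOA1, 12 for NCOA2, 1 for NCOA3, 5 for MED1, 8 for CREBBP and 0 for EP300.

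The list comes from chromatin immunoprecipitation and sequencing (ChIP-seq) of GATA2, a zinc-finger transcription factor, in LNCaP, an established human prostate cancer line that responds to androgen. There was 1 group of 2 replicate ChIP samples, made from cells at passages 32 to 34 with a GATA2 antibody and moved for 3 days before the assay into RPMI with 5% charcoal-treated, and so steroid-depleted, serum. The 2 samples are both of this cell line, and no input, untreated or hormone-treated group is used here. The list holds 1 score per peak, the authors' own value with no stated unit, and no value per replicate, so no result has a replicate error and no p-value was computed. Read depth behind each peak is unknown.

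Steroid receptors such as the androgen receptor bind DNA and then attract coactivators through short leucine-rich motifs on the coactivator surface. Members of the steroid receptor coactivator (SRC) family, encoded by NCOA1, NCOA2 and NCOA3, bind the receptor and bring in the acetyltransferases EP300 and CREBBP, which acetylate histones. MED1 is the subunit through which the Mediator complex, the link to RNA polymerase II, contacts many nuclear receptors. In prostate epithelium GATA2 is known as a factor that acts beside the androgen receptor at many enhancers.

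Of the 6 genes, NCOA1 and MED1 had a GATA2 peak within 10 kb of the end of the gene body where transcription starts. Gene body limits are known here to 10 kb only. NCOA1 had 1 such peak and MED1 had 3, of which 1 lay outside the body on the side of the next gene, CDK12. Of 143494 stretches of 20 kb tiled over the list, 21% held at least 1 peak and 0.63% held at least 3. These stretches were not limited to gene starts, so they are only a rough background. A count of 2 genes of 6 is too small to set apart from it. MED1 is 1 gene singled out from 6, so its 3 peaks cannot be judged by the 0.63% alone. The nearest peak to that end was 39.5 kb away in NCOA3 and 42.8 kb away in CREBBP, and EP300 had none in its window. The orientation of NCOA2 was not used here. Neither end of its body had a peak within 10 kb, the nearest lying 46.4 kb from the low-coordinate end and 19.1 kb from the other. The promoters of MED1, of NCOA1 at its 3 annotated starts and of EP300 are shown to set the 2 genes with a peak at that end beside the gene with no peak at all. Of the NCOA1 starts, the earliest and the middle lie close together at the beginning of the gene, and the last lies further into it, away from the end that has the peak. The promoters are RefSeq sequences of build GRCh38.p14, running from 250 bases before to 50 after the start, and positions on that build were not joined to the hg19 peaks. Capitals mark GATA, the core of the motif GATA factors bind, read on either strand, so that TATC is GATA on the opposite strand.
MED1 (chr17:39451214-39451513, minus strand): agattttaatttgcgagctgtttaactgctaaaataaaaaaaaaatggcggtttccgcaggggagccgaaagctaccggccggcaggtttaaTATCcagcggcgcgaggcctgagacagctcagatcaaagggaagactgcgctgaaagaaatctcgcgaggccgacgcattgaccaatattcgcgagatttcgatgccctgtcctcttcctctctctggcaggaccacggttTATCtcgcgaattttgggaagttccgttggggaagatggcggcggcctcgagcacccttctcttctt
NCOA1, earliest start (chr2:24491004-24491303, plus strand): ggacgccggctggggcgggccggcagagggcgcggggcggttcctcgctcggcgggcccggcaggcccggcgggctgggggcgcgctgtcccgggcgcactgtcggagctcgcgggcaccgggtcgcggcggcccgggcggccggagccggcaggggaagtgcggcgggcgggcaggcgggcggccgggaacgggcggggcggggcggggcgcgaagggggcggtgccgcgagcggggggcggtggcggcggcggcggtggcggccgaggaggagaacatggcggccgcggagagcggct
NCOA1, middle start (chr2:24491627-24491926, plus strand): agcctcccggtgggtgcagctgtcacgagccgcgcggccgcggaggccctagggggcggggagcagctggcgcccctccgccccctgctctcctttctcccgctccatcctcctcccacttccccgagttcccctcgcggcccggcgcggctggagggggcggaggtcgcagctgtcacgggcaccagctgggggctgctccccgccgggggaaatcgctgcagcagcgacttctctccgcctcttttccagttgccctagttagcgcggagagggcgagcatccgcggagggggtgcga
NCOA1, last start (chr2:24584227-24584526, plus strand): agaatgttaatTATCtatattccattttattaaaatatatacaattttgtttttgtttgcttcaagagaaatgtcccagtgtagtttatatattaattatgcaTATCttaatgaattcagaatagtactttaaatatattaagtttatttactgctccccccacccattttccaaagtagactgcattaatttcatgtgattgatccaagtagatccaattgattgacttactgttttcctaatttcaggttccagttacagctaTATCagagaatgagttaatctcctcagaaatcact
EP300 (chr22:41092342-41092641, plus strand): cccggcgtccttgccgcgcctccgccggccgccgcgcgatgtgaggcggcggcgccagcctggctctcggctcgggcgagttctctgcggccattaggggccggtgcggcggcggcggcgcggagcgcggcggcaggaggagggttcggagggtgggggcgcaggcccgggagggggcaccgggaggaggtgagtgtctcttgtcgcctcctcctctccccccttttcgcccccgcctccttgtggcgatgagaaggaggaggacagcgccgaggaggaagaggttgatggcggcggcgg

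The MED1 promoter held 2 GATA matches, both on the opposite strand, and the promoter at the last NCOA1 start held 3, also on the opposite strand. Both promoters at the beginning of NCOA1, with 85.7% and 73.0% G and C, and the EP300 promoter, with 75.3%, held 0. RefSeq promoters of 5 of the 6 genes were used, with 8 annotated starts between them. Of these 8, 3 held GATA, against 49.7% of the 35116 promoters of that length. The longer string GATAA, which contains GATA, was in 2 of the 8, against 22.7% of all promoters. The remaining promoter with GATA was that of NCOA3, which held 1. A match describes the letters only, and whether a GATA2 peak covers any of these windows was not analysed here. Promoters on chromosome 8, where NCOA2 lies, were left out of the 8.

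Over all 6 windows, which span 2.27 Mb, GATA2 peaks numbered 16.3 per Mb (exact Poisson 95% interval 11.5 to 22.5), against 12.8 per Mb on the rest of the list. The ratio of 1.27 had a 95% interval of 0.90 to 1.75, which includes 1. These intervals cover counting error only, and because peaks in this list lie in groups they are narrower than the true spread between regions. Among the best-scoring 10% of the list the ratio was 2.75 (95% interval 1.19 to 5.42), on 8 window peaks. The counts differed between the genes. NCOA2, NCOA1, CREBBP and MED1 had 24.0, 22.4, 21.6 and 20 peaks per Mb of window, while NCOA3 had 2.78 and EP300 had none. The single-window intervals of the first 4 overlap each other, so their order is not established. The NCOA3 interval, 0.07 to 15.5 per Mb, overlaps those of all 4 as well. That of EP300, 0 to 12.3, overlaps all but that of NCOA2, 12.4 to 41.9. Overlap of separate intervals does not decide whether densities differ.

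**Figure D1:**
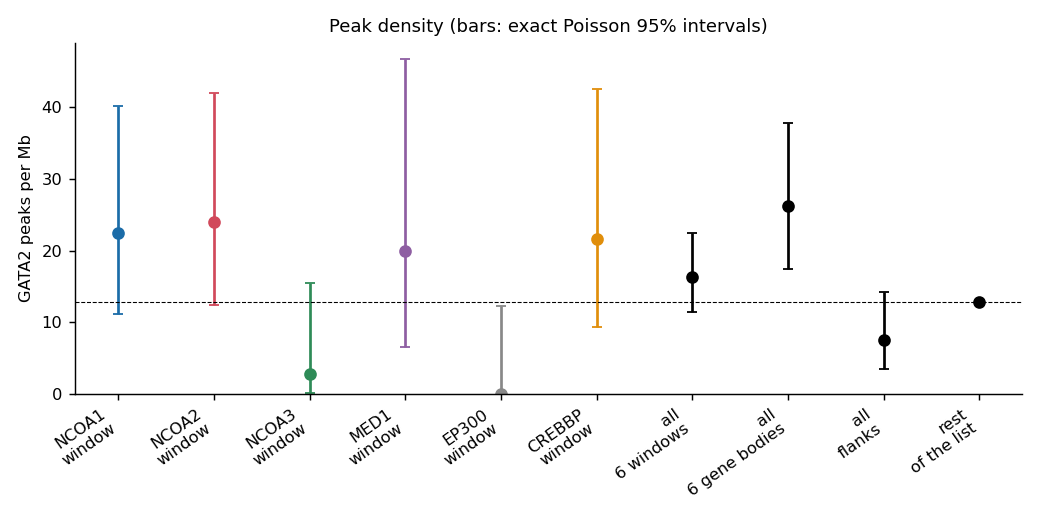
GATA2 peaks per Mb (vertical axis, linear) in each coactivator window, in all windows, gene bodies and flanks together, and on the rest of the list (dashed line, 12.8 per Mb); bars are exact Poisson 95% intervals. NCOA1, NCOA2, MED1 and CREBBP lie at 20 to 24.0 per Mb, NCOA3 at 2.78 and EP300 at 0, and gene bodies (26.2) lie above flanks (7.50).

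Within the windows, the peaks were concentrated in the gene bodies. The bodies make up 47.1% of the window length and held 28 of the 37 peaks, or 26.2 per Mb (95% interval 17.4 to 37.8), against 9 peaks or 7.50 per Mb (95% interval 3.43 to 14.2) in the flanks. The ratio of bodies to flanks was 3.49 (95% interval 1.60 to 8.40). It was 5.33 without the CREBBP window and 2.42 without the NCOA1 window, the latter with a 95% interval of 1.02 to 6.17. Among the best-scoring 10% of peaks the ratio was 1.87, with an interval of 0.36 to 12.0 that includes 1. The gene bodies alone had 2.04 times the density of the rest of the list (95% interval 1.36 to 2.95). NCOA1 and NCOA2 gave 21 of the 28 body peaks. In the body of NCOA1 the density was 37.9 per Mb, which was 2.96 times that of the rest of the list (95% interval 1.48 to 5.30). In that of NCOA2 it was 33.3 per Mb, or 2.60 times (95% interval 1.25 to 4.78). For whole windows the ratios were 1.75 for NCOA1 (95% interval 0.87 to 3.13) and 1.87 for NCOA2 (95% interval 0.97 to 3.27). They were 1.69 for CREBBP (0.73 to 3.32), 1.56 for MED1 (0.51 to 3.64) and 0.22 for NCOA3 (0.0055 to 1.21). Each of these whole-window intervals includes 1. CREBBP had 4 peaks in its body and 4 in its flanks, or 23.5 against 20 per Mb. MED1 had 2 and 3, or 40 against 15 per Mb, as its body is short. Its body interval, 4.84 to 144 per Mb, is very wide. Whether other genes of this length show such a contrast was not analysed here, since no gene positions on hg19 were used.

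**Figure D2:**
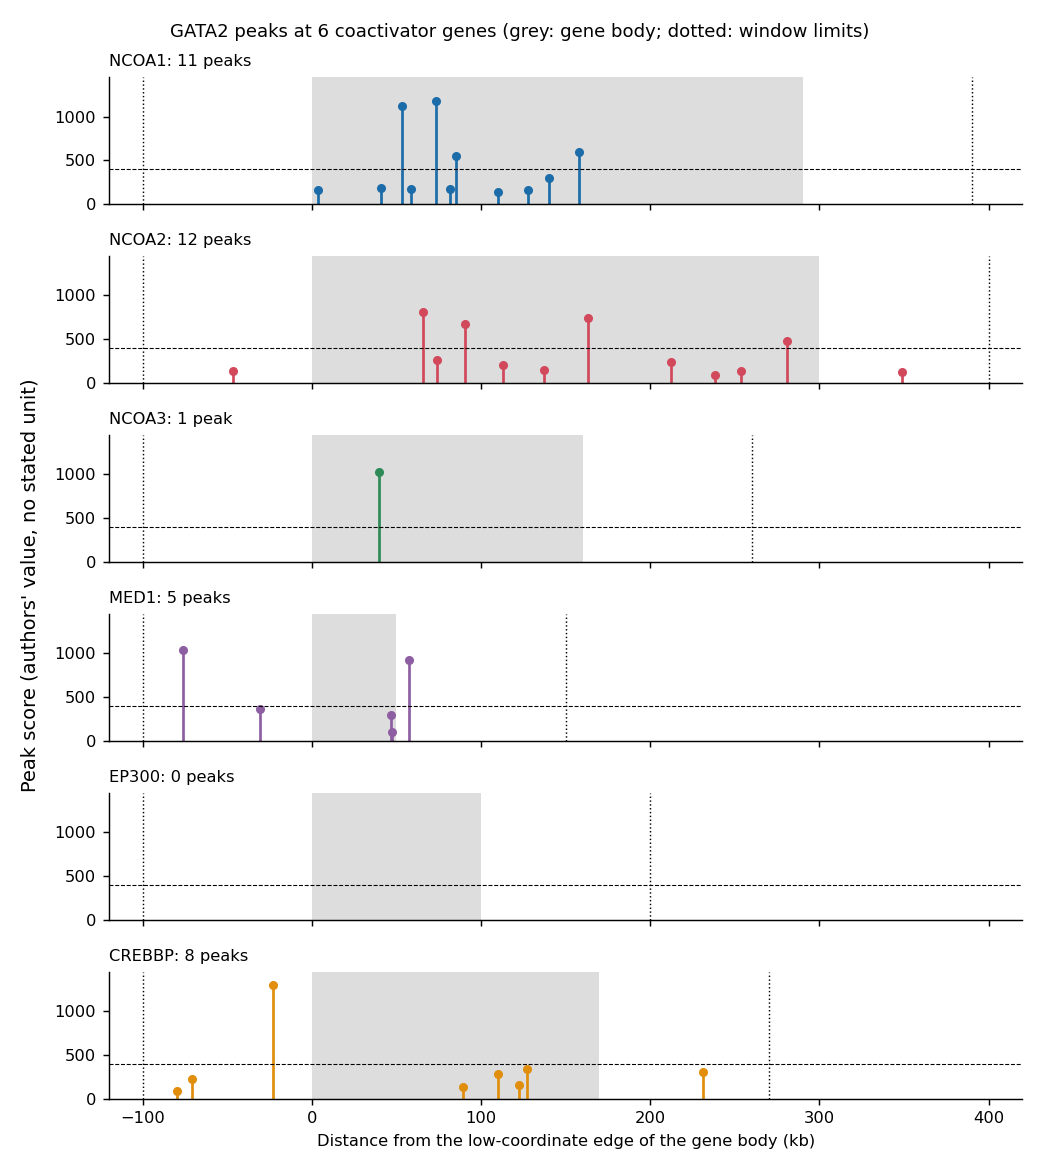
Position (horizontal axis, kb from the low-coordinate edge of the gene body) and score (vertical axis, no stated unit) of each of the 37 peaks, with gene bodies in grey, window limits dotted and the upper quartile of the list's scores, 396.8, dashed. All 11 NCOA1 peaks lie in the gene body, 10 of the 12 NCOA2 peaks are spread along its body with 1 in each flank, and the EP300 window is empty.

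NCOA1 encodes SRC1, an SRC family coactivator of steroid receptors. Its window on chromosome 2 runs from 24.61 to 25.10 Mb, and all 11 of its GATA2 peaks lay in the gene body, from the end where transcription starts to past the middle. They spanned 154.1 kb with a median spacing of 13.8 kb, and 132.2 kb of gene body beyond the last peak held none. The highest-scoring peaks, at 24783449 to 24783874 with a score of 1179 and at 24762806 to 24763388 with 1119.8, lay 20.6 kb apart. Only 1.92% and 2.41% of the list scored higher than these 2 peaks. Next came the peak at 24867429 to 24868169 with 592.2, that at 24794704 to 24795099 with 553.7 and that at 24850280 to 24850612 with 303.1. The other 6 scored between 140.6 and 183.3, all below the list's median of 212.2. The set thus held 4 peaks in the upper quartile of the list, 1 intermediate peak and 6 weak ones. The peak nearest the starting end, at 24713581 to 24713836 and 3.71 kb inside the body, was among the weak ones, with a score of 168.3.

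In the gene order of RefSeq, NCOA1 lies between ITSN2, an endocytic scaffold gene, and PTRHD1, and neither flank of its window held a GATA2 peak. Of 5837 stretches of 0.49 Mb tiled over the list, 14% held at least 11 peaks, and the middle 50% of them held 3 to 8. The NCOA1 count was thus in the upper part of the list without standing outside it. The longest distance between neighbouring peaks at this window was 327.2 kb, from the last NCOA1 peak to the next peak beyond the window, and 3.4% of neighbouring pairs in the list were at least as far apart. It was picked as the longest of several, so that share makes it look rarer than it is.

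NCOA2 encodes the SRC family coactivator also called TIF2 or GRIP1. Its window on chromosome 8, from 70.92 to 71.42 Mb, held 12 GATA2 peaks, of which 10 lay in the gene body. Unlike those of NCOA1, they ran along most of the body, with a median spacing of 26.0 kb over the window. The highest score, 807.9, was that of the peak at 71085666 to 71086046. It was followed by 743.6 at 71183220 to 71183638, 680.1 at 71110403 to 71110816, 477.5 at 71300749 to 71301073 and 269.2 at 71093580 to 71093957. The peak scoring 477.5 was also the nearest to the high-coordinate end of the body, at 19.1 kb. At the low-coordinate end the nearest was a flank peak 46.4 kb outside, at 70973514 to 70973740, with a score of 144.0.

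The lowest NCOA2 score was 91.6, and 5 of its 12 peaks scored below the list's median. Tiled stretches of 0.50 Mb held at least 12 peaks in 10.2% of cases. The ratio of the NCOA1 to the NCOA2 window was 0.94 (95% interval 0.37 to 2.32), so these counts show no difference between the 2 windows, and an interval this wide does not show that they are alike. The neighbours of NCOA2 in gene order are PRDM14, a germ-cell transcription regulator gene, and TRAM1, a gene of protein translocation, and the flank on each side held 1 peak, with scores of 144.0 and 122.5.

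NCOA3 encodes the third SRC family member, also called AIB1 for its amplification in breast cancer. Its window on chromosome 20, from 46.03 to 46.39 Mb, held 1 GATA2 peak, at 46169245 to 46169717, inside the gene body. That peak was 473 bp wide and scored 1025, and 3.41% of the list scored higher. No other peak lay within 212 kb of it. Of 0.36 Mb stretches, 17.4% held at most 1 peak, so the low count is not rare in this list. The neighbouring peak on the far side was 354.1 kb away, a distance reached by 2.81% of neighbouring pairs. It was the longer of the distances on either side, so that share overstates how rare it is. Relative to NCOA3, the peak density was 8.08 times as high in the NCOA1 window (95% interval 1.17 to 348) and 8.64 times as high in the NCOA2 window (95% interval 1.28 to 369). These intervals are wide because the NCOA3 count is 1.

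MED1 has the shortest gene body of the 6, 0.05 Mb, in a window on chromosome 17 from 37.46 to 37.71 Mb. Its 2 body peaks lay at the end where transcription starts, at 37606478 to 37606787 with a score of 292.2 and at 37607436 to 37607699 with 107.8, separated by 648 bp. They were 3.37 and 2.43 kb inside the body limit, which is itself known to 10 kb. A stronger peak, at 37617381 to 37617832 with a score of 928.5, lay 7.61 kb beyond that limit. This is the side of CDK12, a kinase gene of transcription elongation and the next gene in RefSeq order, so the peak cannot be assigned to either gene here.

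The other 2 MED1 window peaks lay in the flank on the side of FBXL20, a ubiquitin ligase subunit gene. They were at 37483423 to 37483988 with a score of 1039 and at 37529394 to 37529671 with 361.4. The window's 2 highest scores were therefore both outside the gene body. Of 0.25 Mb stretches of the list, 25% held at least 5 peaks, so the MED1 count was not unusual.

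EP300 encodes an acetyltransferase of histones and of transcription factors. Its window on chromosome 22, from 41.38 to 41.68 Mb, contained 0 peaks, and the exact Poisson 95% interval reaches 12.3 per Mb. At the density of the rest of the list 3.85 peaks would fall in a window of this length. Of 9544 stretches of 0.30 Mb, 9.64% held none. The nearest peaks lay 127.2 kb below the window, with a score of 255.8, and 83.2 kb above it, with 220.0. The distance between these 2 peaks, 510.4 kb, was reached by 1.22% of neighbouring pairs. A fixed window falls in a long distance more often than the share of pairs, so 1.22% overstates how rare the empty window is. Because depth is unknown, the lack of a peak in the EP300 window cannot be read as a lack of binding.

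CREBBP encodes the close relative of EP300 and gave a different count. Its window on chromosome 16, from 3.67 to 4.04 Mb, held 8 GATA2 peaks, or 21.6 per Mb (95% interval 9.33 to 42.6), against 0 in the EP300 window. The intervals of the 2 windows overlap, but overlap of separate intervals does not decide whether the densities differ. Their ratio was not computed. Tiled stretches of 0.37 Mb held at least 8 peaks in 17.9% of cases. The highest score of all 37 peaks, 1298, was that of the peak at 3746936 to 3747306, and 1.17% of the list scored higher. It lay 22.9 kb outside the gene body, in the flank on the side of TRAP1, a mitochondrial chaperone gene, so it too cannot be assigned to a gene here. The other 2 peaks of that flank scored 88.1 at 3690408 to 3690562, the lowest of the 37, and 224.7 at 3698906 to 3699196.

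The 4 peaks in the CREBBP body lay within 37.7 kb of each other. Their scores were 129.5 at 3859470 to 3859679, 279.9 at 3879629 to 3879971, 156.9 at 3892411 to 3892645 and 337.5 at 3897077 to 3897422. None of the 4 reached the upper quartile of the list. The last peak, at 4000751 to 4001074 in the flank on the side of ADCY9, an adenylyl cyclase gene, scored 301.8. CREBBP thus had 4 body peaks below the upper quartile and 1 high peak outside the body. In NCOA1 and NCOA2 the high peaks were in the body, but so were 21 of all their 23 peaks.

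High-scoring peaks were present in each of the 5 windows that held any. Of the 37 peaks, 12 or 32.4% (Wilson 95% interval 19.6% to 48.5%) reached the upper quartile of the list at 396.8, against 25% of all peaks. They were 4 in NCOA1, 4 in NCOA2, 1 in NCOA3, 2 in MED1 and 1 in CREBBP. The 90th percentile at 686.9 was reached by 8 or 21.6% (95% interval 11.4% to 37.2%), against 10% of all peaks. These 8 came from all 5 windows. The median score of the 37, 269.2 (exact binomial 95% interval 172.1 to 361.4), was above the 212.1 of the rest of the list, but the interval includes that value. Body peaks had a median of 255.2 (95% interval 168.3 to 477.5) and flank peaks one of 301.8 (95% interval 122.5 to 1039), and these intervals overlap.

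**Figure D3:**
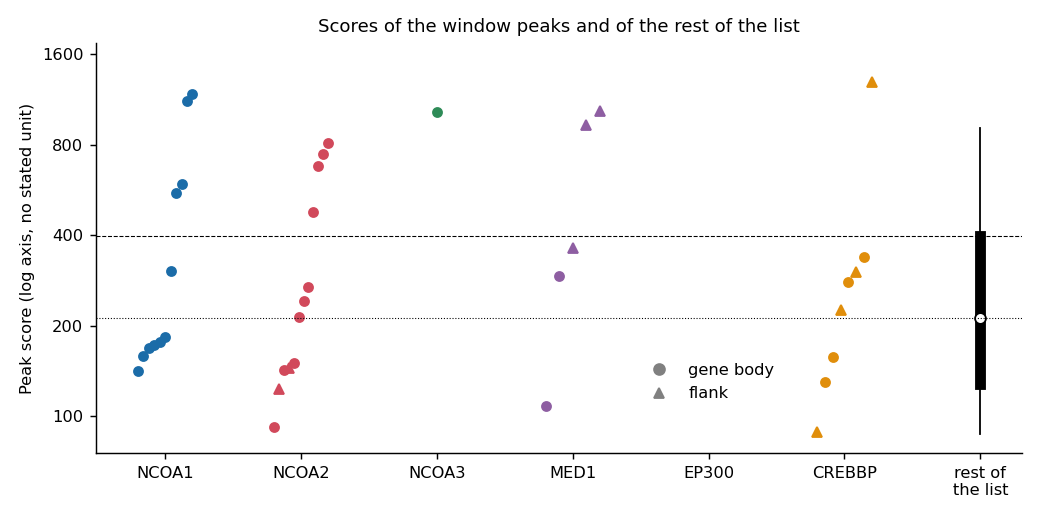
Scores (vertical axis, log scale, no stated unit) of the window peaks by gene, with circles for gene bodies and triangles for flanks, beside the rest of the list (white point, median; thick bar, middle 50%; thin bar, central 90%); the dashed and dotted lines are the list's upper quartile (396.8) and median (212.2). Each gene with a peak has at least 1 above the upper quartile, and in MED1 and CREBBP the highest ones are flank peaks.

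The peaks of these genes had the widths that others of their score have. Their median width was 291 bp (95% interval 256 to 346 bp), against 293 bp for the rest of the list, and 36 of the 37 lay within the central 90% of widths of peaks with a like score. The exception was the NCOA1 peak at 24867429 to 24868169, which was 741 bp wide, against a median of 404 bp for peaks of like score, and 1.01% of the list was wider. Across the 37 peaks, width and score had a Spearman's rho of 0.89, a description over peaks that share 1 list. In the rest of the list it was 0.83.

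**Figure D4:**
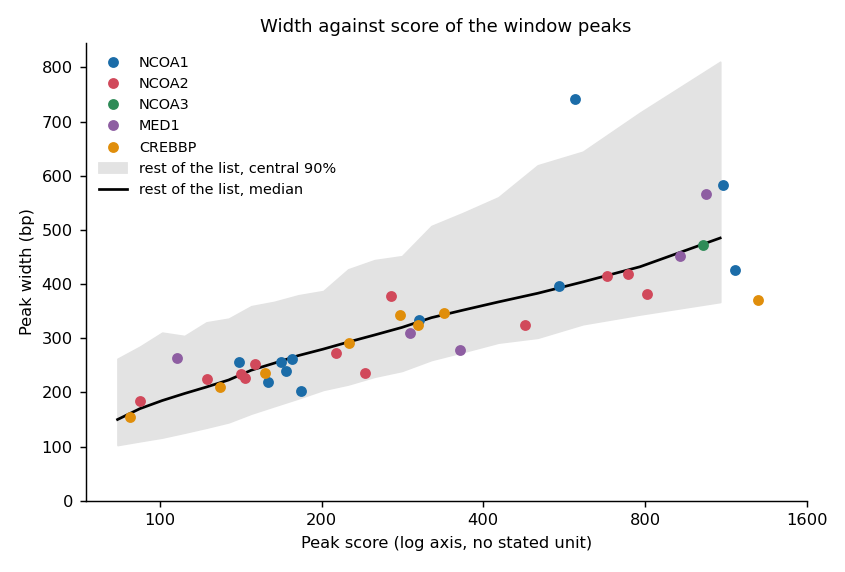
Width (vertical axis, bp) against score (horizontal axis, log scale, no stated unit) of the 37 window peaks, coloured by gene, over the median (line) and central 90% (grey) of the rest of the list in 20 groups of equal size by score. All but the 741 bp NCOA1 peak follow the list; the 3 highest-scoring points stand beyond the last group's median score, where no grey is drawn.

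The share of closely grouped peaks was near that of the list. Another peak centre lay within 10 kb for 13 of the 37 peaks, or 35.1% (Wilson 95% interval 21.8% to 51.2%), against 33.2% of all peaks. NCOA1 gave 5 of these, CREBBP 4, NCOA2 2 and MED1 2. Window peaks had their nearest neighbour at a median of 14.8 kb, and peaks of the rest of the list at 19.1 kb.

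The window limits cut through no peak. For NCOA1 the nearest peaks outside lay 27.5 kb below the window, with a score of 83.7, and 94.97 kb above it, with 169.6, while the first and last inside lay 103.7 and 232.2 kb from the limits. For NCOA2 those outside lay 121.0 kb below and 26.8 kb above, and those inside 53.6 and 51.1 kb from the limits. The peaks outside NCOA3 lay 72.9 kb below and 133.6 kb above. For MED1 they lay 19.96 kb below, with a score of 121.6, and 98.7 kb above, with 869.2, and the first inside lay 23.7 kb from the limit. For CREBBP they lay 160.1 kb below and 55.0 kb above, and the first inside, scoring 88.1, lay 20.5 kb from the limit. The smallest distance between a peak centre and a window limit was 19.96 kb, at MED1.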

How the data were processed

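GATA2 ChIP-seq of 2 LNCaP samples was analysed from the 1 deposited peak list. Per the submitters' processing notes, reads were aligned with Bowtie to hg19. Peaks carry MACS names, per the file. For tool versions, a control library, duplicate reads and pooling of replicates, nothing was given in the sources at hand. The score is the authors' deposited value per peak, from 80.01 to 3100. It was used only to rank and describe peaks. Starts were converted to 1-based positions.

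Windows were those of the gene bodies with 0.1 Mb added, rounded to 10 kb. Densities used 2870 Mb, the length between first and last peaks less peak-free stretches over 2.5 Mb. Densities have exact Poisson, ratios exact binomial, medians exact order-statistic and shares Wilson 95% intervals. Tiled stretches of each window's length covered the same 2870 Mb. All peaks of windows with up to 10 were named, and otherwise the 5 highest-scoring and those nearest each gene body end. The genes, windows and lists were chosen with earlier results of these data known, and tiling was added after the counts were seen. A fixed list of other coregulator genes was not located, nor were exons and introns, since no hg19 annotation was used, and receptor-binding motifs in the proteins were not analysed here. Gene order, orientation and promoters are from RefSeq GRCh38.p14. Python 3.11.15, numpy 2.4.6, pandas 2.3.3, scipy 1.17.1 and matplotlib 3.10.9 were used.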

Additional observations from a re-analysis of the deposited data

How the results depend on the processing

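Among 63 alternative values, 53 lay inside the 95% interval of the main one, and the body to flank ratio stayed above 1 in each of the 9 run for it. Some of the 53 could not differ from the main value. Leaving out the empty EP300 window, or changing only the comparison peaks, keeps the scores, widths and neighbours of the window peaks as they are. Counting by any overlap with the window selected the same 37 peaks. With the better-scoring 50% of the list the median score was 515.6 and the median width 374.5 bp, and with the best-scoring 10% they were 1032 and 439 bp, by construction, since weak peaks score lower and are narrower. Close neighbours, within 10 kb, were held by 9.09% and 0% of window peaks there, on 22 and 8 peaks, against 17.2% and 4.55% for the rest of each subset. The share was 16.2% for a limit of 5 kb and 70.3% for 25 kb, against 19.7% and 57.8%. The density ratio of 1.27 became 2.75 with the best-scoring 10% and 2.04 with gene bodies only, and the cause was not tested. Omitting each window in turn gave density ratios of 1.10 to 1.47, median scores of 232.9 to 292.2, median widths of 278 to 310 bp, close-neighbour shares of 30.8% to 44.0% and body to flank ratios of 2.42 to 5.33. The interval of the density ratio excluded 1 without NCOA3 (1.03 to 2.04) and without EP300 (1.03 to 2.02). These are the windows with the fewest peaks per Mb, so leaving either out raises the ratio by construction. It adds no support beyond the main interval of 0.90 to 1.75. Leaving out windows for the body to flank ratio was chosen after seeing the data. Leaving out a replicate was not run, as the peak list has no column for either sample. No paired analysis was possible because the design has a single group and the peak list has no column for either sample. Depth is unknown and limits any reading of an empty region.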
